A study of Mus musculus with 20 samples.

Results

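The genes described here encode subunits of respiratory complexes II, III, IV and V, together with cytochrome c, the soluble protein that carries electrons from complex III to complex IV. Members were taken by platform gene symbol alone: Sdha, Sdhb, Sdhc, Sdhd, Cyc1 and Cycs, every symbol that starts with Uqcr or Atp5, and every symbol of the families Cox4 to Cox8 followed by a letter. The rule uses no measured value, but it was set with earlier results of these data known. The rule found 49 of the 19505 genes that the array names with a single symbol: 4 of complex II, 9 of complex III, 1 cytochrome c gene, 18 of complex IV and 17 of complex V. Each had 1 probe set, all 49 were tested with no filter on low signal, and 1 of them, Cox7a2l, encodes a protein best known for joining complexes III and IV into supercomplexes. The 6 mitochondrially encoded subunits of these complexes were not analysed here.

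Livers of 20 mice were profiled on 1 Affymetrix array each, with 5 mice per group that the labels call biological replicates. The groups were fasted Mcl1(L-/-), fed Mcl1(L-/-), fasted WT and fed WT. Fasted mice spent 48 h alone in cages with wire floors and no food, fed mice ate freely, and every mouse had water. Mcl1(L-/-) livers came from Mcl1(F/F) mice given AAV-LP1-Cre, an adeno-associated virus whose liver promoter drives Cre recombinase. This design is meant to delete Mcl1, which encodes the anti-apoptotic BCL2 family protein MCL-1, in liver alone. Other tissues and the protein were not measured here. The labels carry the same virus text for every sample and do not say whether WT mice had a control virus, so effects of losing Mcl1 and of the vector or of Cre cannot be told apart. Sex, age and strain background are not given in the labels.

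Oxidative phosphorylation couples the oxidation of nutrients to the synthesis of ATP at the inner mitochondrial membrane. Complex II (succinate dehydrogenase, also an enzyme of the citric acid cycle) passes electrons from succinate to coenzyme Q, complex III (the cytochrome bc1 complex) passes them to cytochrome c, and complex IV (cytochrome c oxidase) passes them to oxygen. Complexes III and IV pump protons, and complex V (ATP synthase) uses their return to make ATP. In a fasted liver this chain receives electrons from fatty acid oxidation and supplies ATP for gluconeogenesis, and cytochrome c also triggers apoptosis once it leaves the mitochondrion. Apart from complex II, each complex also holds subunits made from mitochondrial DNA, and the nuclear genes are controlled in part by the factors NRF1, GABP, YY1 and the estrogen-related receptors together with the coactivator PGC-1alpha.

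Values are the log2 signals the authors deposited. No log base is stated, log2 was assumed, and the normalisation used hides any shift shared by most transcripts and compresses the folds of dim probe sets. Signals of different genes are not compared, because each probe set responds to its target in its own way, and whether these probe sets also detect processed pseudogenes was not checked. Mcl1 transcript averaged 6.14 ± 0.25 in fasted Mcl1(L-/-), 6.09 ± 0.16 in fed Mcl1(L-/-), 7.28 ± 0.09 in fasted WT and 7.43 ± 0.15 in fed WT livers (SD, n = 5 each), with every Mcl1(L-/-) liver below every WT liver. The 9 measured hepatocyte markers of 12 listed had a mean signal of 11.62 to 11.65 in fasted and 11.52 to 11.58 in fed Mcl1(L-/-) livers. In WT livers it was 11.64 to 11.68 with fasting and 11.54 to 11.59 with food. Of these 9, fasting in Mcl1(L-/-) livers raised 2, Cps1 (log2 0.54) and Hnf4a (0.48), and lowered 1, Ttr (-0.32). In WT livers Cps1 was called higher (0.47) and 0 were called lower. Hnf4a (0.42, adjusted p = 0.0501) and Ttr (-0.19, adjusted p = 0.227) were not called there. For both genes the fasted and fed WT livers did not overlap. Of the markers of other cells, 10 Kupffer cell markers had mean signals of 5.08 to 5.82 in fasted Mcl1(L-/-), 5.52 to 5.85 in fed Mcl1(L-/-), 4.52 to 4.97 in fasted WT and 5.34 to 5.83 in fed WT livers. Fasting lowered 3 of these 10 in Mcl1(L-/-) livers and 5 in WT livers, and 4 of the 10 were higher in fasted Mcl1(L-/-) than in fasted WT livers, with 10 of 10 estimates positive and a median of 0.62. Vsig4, a Kupffer cell receptor, was the marker of this list with a called interaction (log2 1.26, adjusted p = 0.022). With fasting in Mcl1(L-/-) livers, 2 of 8 sinusoidal endothelial markers rose, Lyve1 by 2.24 and Oit3 by 0.85, and 0 were called lower. In WT livers Lyve1 also rose, by 1.79, and 2 of the 8 were called lower, Clec4g (-0.89) and Fcgr2b (-0.92). Of 8 stellate cell or fibroblast markers, Dcn rose by 0.82 and 2 fell in Mcl1(L-/-) livers, Col3a1 (-1.7) and Reln (-0.56). In WT livers 0 of these 8 rose and 2 fell, Col3a1 (-1.01) and Lum (-1.04). Dcn was also higher in fasted Mcl1(L-/-) than in fasted WT livers (0.76, adjusted p = 0.00174). Of 5 measured neutrophil markers, 1 was called higher with fasting in Mcl1(L-/-) livers and 0 in WT livers. Between the fasted genotypes, 1 of these 5 was called higher in Mcl1(L-/-) livers. The part of these markers in the results below was not tested, and the shares of all probe sets called are given with each comparison. In RNA of whole liver, fewer cells of a type and less RNA per cell cannot be told apart. Differences were called with limma at a Benjamini-Hochberg adjusted p under 0.05 over all 22206 probe sets, standard errors (SE) are those of the model, and n = 5 livers per group throughout.

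In fasted Mcl1(L-/-) livers, 26 of the 49 respiratory genes were higher than in fed Mcl1(L-/-) livers and 0 were lower. Over all probe sets, 8.2% were called higher and 6.25% lower in this comparison. The rises were small, from 1.2-fold for Atp5b to 1.59-fold for Cycs, and 0 members reached 2-fold in any comparison of groups. The median difference of the members was 0.30 on the log2 scale, 40 of 49 estimates were positive, and the median over all probe sets lay at -0.00. All 5 fasted livers lay above all 5 fed livers in 24 members, and below them in 0, against 5.88% and 4.37% of all probe sets, and 20 of these 24 were called. Respiratory genes give bright signals, so a second background was set after the data were seen: among the 1210 probe sets with a mean signal of at least 8, 27.4% were called higher and 20.3% lower, and of the 32 members that bright 21 were higher (65.6%) and 0 lower.

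In WT livers the same fast gave 3 calls, Uqcrc1, Cox5b and Atp5d, all higher, among 3.1% of all probe sets called higher and 3.68% lower. Among the probe sets with a mean signal of at least 8, 14.5% were called higher and 12.4% lower in WT livers, and of the 32 members that bright 2 were higher (6.25%), which is below that share. The 3 members were also called in Mcl1(L-/-) livers. The members' median difference was 0.13, and 41 of 49 estimates were positive. In 5 members, Atp5b, Atp5d, Atp5h, Cox5b and Uqcrh, all fasted WT livers lay above all fed WT livers, and in 0 below, against 3.54% and 3.81% of all probe sets. Some margins were narrow, with nearest values of 10.55 and 10.53 for Atp5b and of 9.36 and 9.34 for Atp5d. For Uqcrh the nearest values were equal to 2 decimals, at 9.56. The estimate was larger in Mcl1(L-/-) than in WT livers for 41 of 49 genes, but the difference between the genotypes was called for 0 of them, as given further on.

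**Figure D1:**
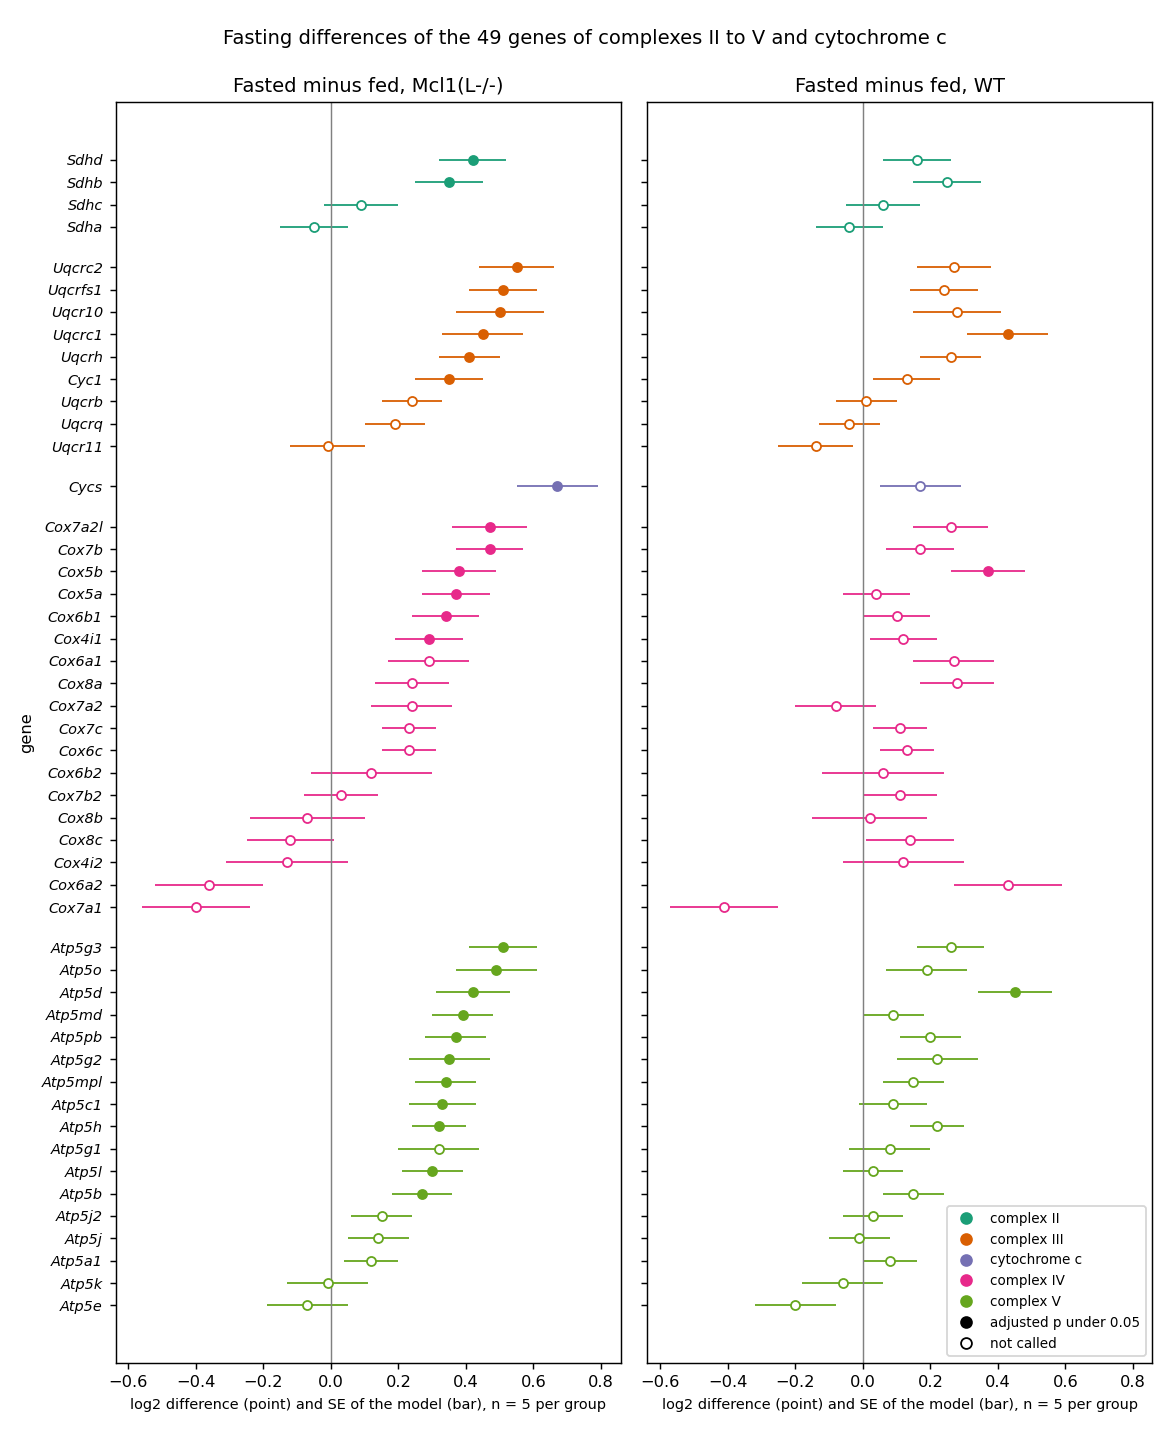
Fasted minus fed difference of each of the 49 genes (log2 scale, horizontal axis), in Mcl1(L-/-) livers on the left and WT livers on the right, with points for the limma estimate, bars for its SE and colours for the complex. Filled points passed an adjusted p of 0.05: 26 on the left, all above 0, and 3 on the right, all above 0.

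The promoters of a few members that rose are printed to show the sequence from which these transcripts start. They are taken from RefSeq (GRCm38.p6) and cover 250 bases before to 50 bases after the start, in the direction of transcription. Sdhd, Cycs, Cox7a2l and Atp5g3 had the largest rise in fasted Mcl1(L-/-) livers within their set, and Uqcrc1 is the complex III gene that was called in both genotypes. Capitals mark a match, on either strand, to 1 of 4 motifs that were searched: GCGCATGCG for NRF1, CCGGAAGT for GABP and other ETS factors, TCAAGGTCA for estrogen-related receptors and AAGATGGCG for YY1.
Sdhd promoter, chr9:50603800-50604099, minus strand: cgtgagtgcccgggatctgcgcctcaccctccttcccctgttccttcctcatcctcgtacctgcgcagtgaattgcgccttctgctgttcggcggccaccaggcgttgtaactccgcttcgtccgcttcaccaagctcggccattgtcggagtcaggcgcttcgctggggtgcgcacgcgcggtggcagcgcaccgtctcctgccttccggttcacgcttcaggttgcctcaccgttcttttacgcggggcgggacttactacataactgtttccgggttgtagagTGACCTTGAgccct
Uqcrc1 promoter, chr9:108936398-108936697, plus strand: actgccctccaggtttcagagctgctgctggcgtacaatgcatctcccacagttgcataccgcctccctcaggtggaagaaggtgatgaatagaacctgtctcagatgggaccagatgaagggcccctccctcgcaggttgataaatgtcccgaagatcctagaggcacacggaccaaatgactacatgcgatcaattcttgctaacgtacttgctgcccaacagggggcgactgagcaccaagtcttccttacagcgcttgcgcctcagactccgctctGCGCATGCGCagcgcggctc
Cycs promoter, chr6:50566520-50566819, minus strand: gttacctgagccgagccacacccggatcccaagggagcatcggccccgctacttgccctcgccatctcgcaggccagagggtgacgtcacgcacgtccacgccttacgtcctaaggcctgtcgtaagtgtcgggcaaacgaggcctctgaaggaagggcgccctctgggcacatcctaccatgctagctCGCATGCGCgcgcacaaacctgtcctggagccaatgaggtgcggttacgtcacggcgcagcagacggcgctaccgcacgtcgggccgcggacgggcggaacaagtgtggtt
Cox7a2l promoter, chr17:83514284-83514583, minus strand: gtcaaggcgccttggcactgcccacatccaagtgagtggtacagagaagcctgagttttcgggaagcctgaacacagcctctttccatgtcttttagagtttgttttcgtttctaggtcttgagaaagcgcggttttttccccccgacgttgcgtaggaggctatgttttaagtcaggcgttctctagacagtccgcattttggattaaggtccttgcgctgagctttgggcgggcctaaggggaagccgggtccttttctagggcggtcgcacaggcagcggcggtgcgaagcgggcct
Atp5g3 promoter, chr2:73911277-73911576, minus strand: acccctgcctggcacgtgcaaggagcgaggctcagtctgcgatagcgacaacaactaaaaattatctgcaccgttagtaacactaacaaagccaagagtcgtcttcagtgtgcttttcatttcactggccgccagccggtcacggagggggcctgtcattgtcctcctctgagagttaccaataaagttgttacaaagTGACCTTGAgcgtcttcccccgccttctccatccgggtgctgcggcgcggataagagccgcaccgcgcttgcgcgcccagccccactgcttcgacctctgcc
Cycs holds an NRF1 match 61 bases before its start, and Uqcrc1 holds a pair of overlapping NRF1 matches 30 bases and 31 bases after its start. Atp5g3 holds an estrogen-related receptor match 52 bases before its start, Sdhd holds one 36 bases after its start, and the Cox7a2l window holds no match to any of the 4. Promoters were matched for 37 of the 49 members. NRF1 letters stood in 7 of these 37 (18.9%), namely Atp5g2, Atp5k, Atp5l, Cox6a1, Cycs, Uqcr11 and Uqcrc1, against 1.95% of all 27025 genes in the promoter table. The ETS letters stood in 4 (10.8%, against 4.31% of all genes), those of estrogen-related receptors in 2 (5.41%, against 0.466%) and those of YY1 in 2 (5.41%, against 1.64%). Of the 22 members with a promoter that rose in Mcl1(L-/-) livers 4 had the NRF1 letters. Of the 15 that were not called 3 had them. In the same order, the counts were 2 and 2 for the ETS letters, 2 and 0 for estrogen-related receptors and 0 and 2 for YY1. A match is a description of these windows and not a bound site.

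Complex II showed a split between its subunits. Sdhd, which encodes a membrane anchor of the complex, had signals of 8.84, 8.66, 8.68, 8.95 and 8.80 in fasted Mcl1(L-/-) livers, against 8.13, 8.53, 8.43, 8.30 and 8.44 in fed Mcl1(L-/-) livers. Fasted WT livers gave 8.66, 8.70, 8.63, 8.64 and 8.45, and fed WT livers 8.33, 8.36, 8.43, 8.57 and 8.56. The fasted and fed Mcl1(L-/-) values did not overlap, while in WT livers 1 fasted value lay among the fed ones. Sdhd rose 1.34-fold in Mcl1(L-/-) livers (log2 0.42, SE 0.10, adjusted p = 0.00347), with an estimate of 0.16 in WT livers (adjusted p = 0.42).

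Sdhb, the iron-sulfur subunit, rose 1.28-fold with fasting in Mcl1(L-/-) livers (log2 0.35, SE 0.10, adjusted p = 0.0232) and had an estimate of 0.25 in WT livers (adjusted p = 0.202). The Sdhb call was lost without fed Mcl1(L-/-) replicate 1, fasted Mcl1(L-/-) replicate 1 or fasted Mcl1(L-/-) replicate 4, with adjusted p between 0.0619 and 0.0713. Sdha, the flavoprotein that oxidises succinate, was measured at 7.05, 6.86, 6.90, 7.16 and 6.80 in fasted Mcl1(L-/-) livers, against 6.88, 6.95, 7.06, 7.04 and 7.11 in fed Mcl1(L-/-) livers. Its groups overlapped throughout, with differences of -0.05 in Mcl1(L-/-) (SE 0.10, adjusted p = 0.833) and -0.04 in WT livers (adjusted p = 0.901). Sdhc, the other membrane anchor, had a fasting estimate of 0.09 in Mcl1(L-/-) and 0.06 in WT livers (adjusted p = 0.709 and 0.847). Its signal in Mcl1(L-/-) relative to WT livers was -0.26 in the fast (adjusted p = 0.189) and -0.28 with food (adjusted p = 0.624), the most negative fed estimate among the 49.

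**Figure D2:**
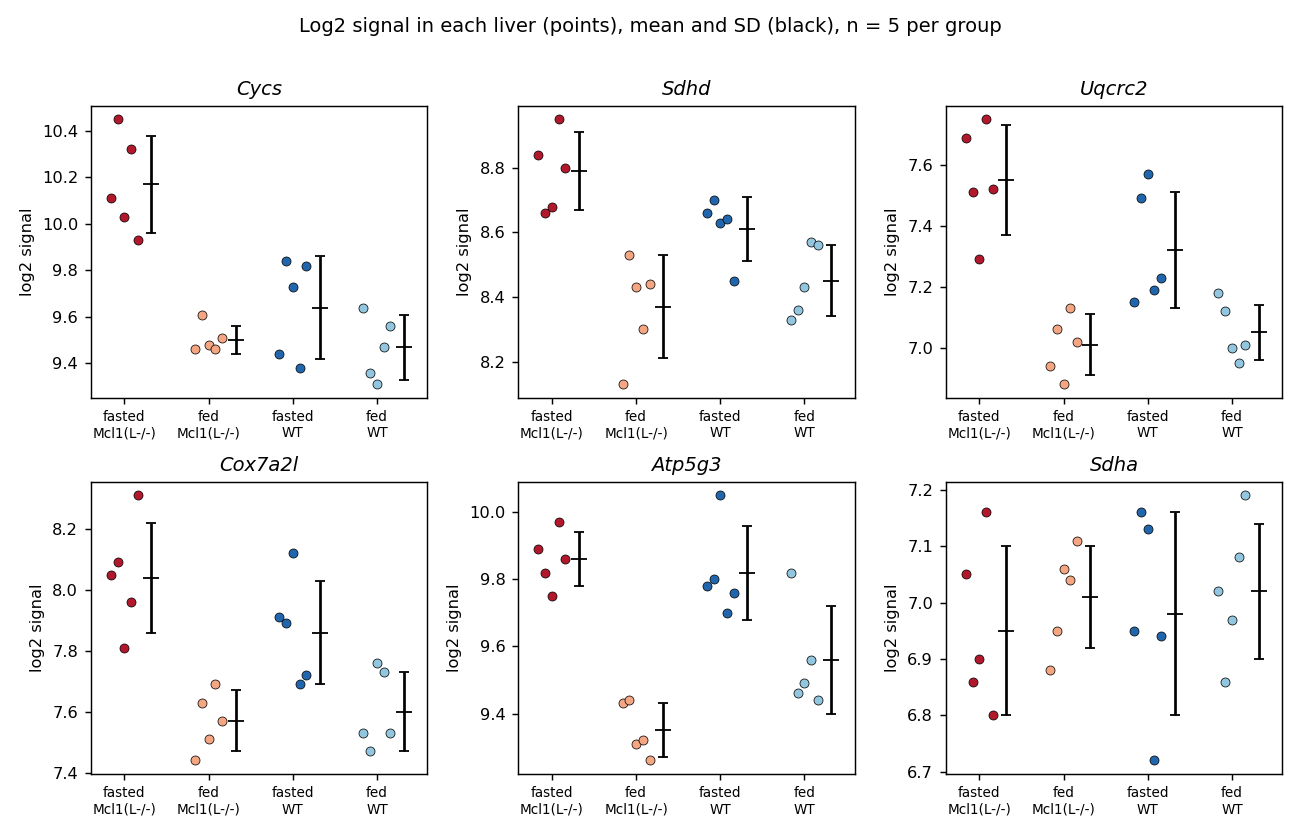
Log2 signal of 6 genes in each liver (vertical axis, its range differs between panels), with points for livers and black bars for the group mean and SD, in the order fasted Mcl1(L-/-), fed Mcl1(L-/-), fasted WT and fed WT. For Cycs the 5 fasted Mcl1(L-/-) livers lie at 9.93 to 10.45, above all 15 other livers, while for Sdha all 4 groups overlap.

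Complex III had 6 of its 9 genes called higher in fasted Mcl1(L-/-) livers (66.7%, against 8.2% of all probe sets), with a median difference of 0.41. In fasted WT livers it had 1 of 9 (11.1%, against 3.1%), with a median of 0.24. The largest rise in Mcl1(L-/-) livers was that of Uqcrc2, which encodes a core protein on the matrix side. Uqcrc2 had signals of 7.69, 7.51, 7.29, 7.75 and 7.52 in fasted Mcl1(L-/-) livers, against 6.94, 7.06, 6.88, 7.13 and 7.02 in fed Mcl1(L-/-) livers. Fasted WT livers gave 7.15, 7.49, 7.57, 7.19 and 7.23, against 7.18, 7.12, 7.0, 6.95 and 7.01 in fed WT livers. Its Mcl1(L-/-) groups did not overlap and its WT groups did. Uqcrc2 rose 1.46-fold in Mcl1(L-/-) livers (log2 0.55, SE 0.11, adjusted p = 0.000701), and in WT livers the estimate was 0.27 (adjusted p = 0.15).

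Uqcrfs1, the Rieske iron-sulfur protein that accepts an electron from ubiquinol, rose 1.42-fold (log2 0.51, SE 0.10, adjusted p = 0.00101), with an estimate of 0.24 in WT livers (adjusted p = 0.198). Uqcrc1, the partner core protein whose promoter is shown above, was measured at 8.35, 7.95, 7.99, 8.45 and 8.37 in fasted Mcl1(L-/-) livers, against 7.83, 7.92, 7.74, 7.82 and 7.54 in fed Mcl1(L-/-) livers. In WT livers it was measured at 8.15, 8.29, 8.51, 8.0 and 7.99 with fasting, against 7.99, 7.69, 7.72, 7.77 and 7.62 with food. It rose 1.37-fold in Mcl1(L-/-) livers (log2 0.45, SE 0.12, adjusted p = 0.0135), where the groups did not overlap. In WT livers it rose by a log2 difference of 0.43 (adjusted p = 0.0344), where the lowest fasted value equalled the highest fed one to 2 decimals. Cyc1, the cytochrome c1 subunit that hands electrons to cytochrome c, rose 1.27-fold in Mcl1(L-/-) livers (log2 0.35, SE 0.10, adjusted p = 0.0237) and had an estimate of 0.13 in WT livers.

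The small subunits of complex III were divided. Uqcr10 and the hinge protein gene Uqcrh were also called in Mcl1(L-/-) livers, at 1.41-fold and 1.33-fold (adjusted p = 0.00866 and 0.00319). Uqcrb, Uqcrq and Uqcr11 had estimates of 0.24, 0.19 and -0.01 and were not called (adjusted p = 0.0724, 0.238 and 0.988). The Cyc1 call was lost without any 1 of fed Mcl1(L-/-) replicates 3 and 5 and fasted Mcl1(L-/-) replicates 1, 4 and 5, with adjusted p between 0.0575 and 0.0754. The WT call of Uqcrc1 was lost without any 1 of 4 fed WT livers (replicates 2, 3, 4 and 5) and 3 fasted WT livers (replicates 1, 2 and 3), with adjusted p between 0.0514 and 0.12.

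Cytochrome c had the largest rise of all members. Cycs, the somatic cytochrome c gene, was measured at 10.11, 10.45, 10.03, 10.32 and 9.93 in fasted Mcl1(L-/-) livers, against 9.46, 9.61, 9.48, 9.46 and 9.51 in fed Mcl1(L-/-) livers. Fasted WT livers gave 9.44, 9.84, 9.73, 9.38 and 9.82, against 9.64, 9.36, 9.31, 9.47 and 9.56 in fed WT livers. Every fasted Mcl1(L-/-) liver lay above every liver of the other groups, and the fasted and fed WT livers overlapped. Cycs rose 1.59-fold with fasting in Mcl1(L-/-) livers (log2 0.67, SE 0.12, adjusted p = 0.000208), and the WT estimate was 0.17 (adjusted p = 0.49). It was the 1 member called higher in fasted Mcl1(L-/-) than in fasted WT livers, at 1.44-fold (log2 0.53, SE 0.12, adjusted p = 0.00994). The fasting effect in Mcl1(L-/-) minus that in WT livers was 0.49 (SE 0.16, adjusted p = 0.223), so a difference of the fasting effects was not called.

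Complex IV had 6 of 18 genes called higher in fasted Mcl1(L-/-) livers (33.3%, against 8.2% of all probe sets). In fasted WT livers it had 1 of 18 (5.56%, against 3.1%). Its genes include 7 isoforms that are used mainly in other tissues, such as muscle, brown fat, lung and testis: Cox4i2, Cox6a2, Cox6b2, Cox7a1, Cox7b2, Cox8b and Cox8c. Without these, 6 of 11 were called in Mcl1(L-/-) livers and all 11 estimates were positive, between 0.23 and 0.47 with a median of 0.29. Called were Cox4i1, Cox5a, Cox5b, Cox6b1, Cox7a2l and Cox7b. Cox6a1, Cox6c, Cox7a2, Cox7c and Cox8a were not, with adjusted p between 0.0542 and 0.229.

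Cox7a2l was measured at 8.05, 8.09, 7.81, 7.96 and 8.31 in fasted Mcl1(L-/-) livers, against 7.44, 7.63, 7.51, 7.69 and 7.57 in fed Mcl1(L-/-) livers. Fasted WT livers gave 7.91, 7.89, 8.12, 7.69 and 7.72, against 7.53, 7.47, 7.76, 7.73 and 7.53 in fed WT livers. The Mcl1(L-/-) groups did not overlap and the WT groups did. Cox7a2l rose 1.39-fold in Mcl1(L-/-) livers (log2 0.47, SE 0.11, adjusted p = 0.00293), with an estimate of 0.26 in WT livers (adjusted p = 0.187). Cox7b, a small subunit, rose 1.38-fold (log2 0.47, SE 0.10, adjusted p = 0.00125), with 0.17 in WT livers (adjusted p = 0.403).

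Cox5a and Cox5b both encode subunits on the matrix side of the enzyme. Cox5b rose 1.3-fold in Mcl1(L-/-) livers (log2 0.38, SE 0.11, adjusted p = 0.0149) and by 0.37 in WT livers (adjusted p = 0.0348). Fasted WT livers had Cox5b signals of 9.21, 9.32, 9.42, 9.48 and 9.16, all above the 9.07, 8.95, 8.97, 9.03 and 8.74 of fed WT livers. Its WT call was lost without any 1 of fed WT replicates 2, 3 and 5 and fasted WT replicates 2, 3 and 4, with adjusted p between 0.0626 and 0.108. Cox5a rose by 0.37 in Mcl1(L-/-) livers (SE 0.10, adjusted p = 0.00879) and had an estimate of 0.04 in WT livers (adjusted p = 0.903). The interaction of Cox5a was 0.33 (adjusted p = 0.336).

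Cox4i1, the ubiquitous isoform of the regulatory subunit 4, rose 1.22-fold in Mcl1(L-/-) livers (log2 0.29, SE 0.10, adjusted p = 0.0478), a call so close to the threshold that leaving out any of 16 of the 20 arrays ended it, with adjusted p up to 0.141. Cox6b1, which faces the intermembrane space, rose 1.26-fold (log2 0.34, adjusted p = 0.0229). This call was lost without fed Mcl1(L-/-) replicate 1 or 5 or fasted Mcl1(L-/-) replicate 4 or 5 (adjusted p between 0.0541 and 0.0749). Cox6a1 and Cox8a, the liver isoforms of subunits 6a and 8, had similar estimates in both genotypes, 0.29 and 0.24 in Mcl1(L-/-) and 0.27 and 0.28 in WT livers, with no call. Cox7a2, the liver isoform of subunit 7a, had 0.24 in Mcl1(L-/-) and -0.08 in WT livers (adjusted p = 0.229 and 0.818).

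The 7 isoforms of other tissues gave mean signals of 2.04 to 3.84 and 0 were called with fasting in either genotype. Cox6a2, the heart and muscle isoform of subunit 6a, was the 1 member called lower in fasted Mcl1(L-/-) than in fasted WT livers. Its signals were 3.62, 3.56, 3.6, 3.73 and 3.24 in fasted Mcl1(L-/-) livers, against 4.32, 3.75, 4.0, 3.95 and 4.80 in fasted WT livers. With food they were 3.70, 4.03, 4.21, 3.82 and 3.79 in Mcl1(L-/-) and 3.51, 3.76, 3.61, 3.6 and 4.17 in WT livers. The fasted groups did not overlap, with 3.73 and 3.75 as their nearest values, while the fed groups did, and the difference was 1.53-fold (log2 -0.61, SE 0.16, adjusted p = 0.031). The call was lost without fasted WT replicate 1 or 5, or fasted Mcl1(L-/-) replicate 1, 2 or 5 (adjusted p between 0.0553 and 0.0886). The 10 striated muscle markers had mean signals of 2.82 to 2.98 in fasted Mcl1(L-/-) and 2.86 to 3.10 in fasted WT livers and 0 of 10 were called. The median signal of the arrays was 3.35 to 3.47.

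Complex V had 11 of 17 genes called higher in fasted Mcl1(L-/-) livers (64.7%, against 8.2% of all probe sets), with a median difference of 0.32. In fasted WT livers it had 1 of 17 (5.88%, against 3.1%), with a median of 0.09. Atp5g3, 1 of the 3 genes that encode the same mature c subunit of the rotating ring, had signals of 9.89, 9.82, 9.75, 9.97 and 9.86 in fasted Mcl1(L-/-) livers, against 9.43, 9.44, 9.31, 9.32 and 9.26 in fed Mcl1(L-/-) livers. Fasted WT livers gave 9.78, 9.80, 10.05, 9.70 and 9.76, against 9.82, 9.46, 9.49, 9.56 and 9.44 in fed WT livers. Fed WT replicate 1 stood above the other fed WT livers and inside the fasted range. Atp5g3 rose 1.42-fold in Mcl1(L-/-) livers (log2 0.51, SE 0.10, adjusted p = 0.000514). The WT estimate was 0.26 (adjusted p = 0.112), and without fed WT replicate 1 it was called at 0.33 (adjusted p = 0.0375).

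Of the other c subunit genes, Atp5g2 rose 1.28-fold in Mcl1(L-/-) livers (log2 0.35, SE 0.12, adjusted p = 0.0487) and Atp5g1 had 0.32 (adjusted p = 0.0864). The Atp5g2 call was ended by leaving out any of 14 of the 20 arrays, with adjusted p up to 0.148. Atp5d, which encodes the delta subunit of the central stalk, was the member of complex V called in both genotypes. Its signals were 9.64, 9.30, 9.47, 9.78 and 9.74 in fasted Mcl1(L-/-) livers, against 9.10, 9.21, 9.19, 9.29 and 9.05 in fed Mcl1(L-/-) livers. In WT livers they were 9.76, 9.60, 9.84, 9.76 and 9.36 with fasting, against 9.34, 9.14, 9.13, 9.26 and 9.17 with food. Neither pair of groups overlapped, and Atp5d rose 1.34-fold in Mcl1(L-/-) livers (log2 0.42, adjusted p = 0.00883) and by 0.45 in WT livers (SE 0.11, adjusted p = 0.00975). These were the 2 calls of this gene, and both held in each of the 27 alternative settings.

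The catalytic head of complex V is built from alpha and beta subunits, of which Atp5b was called in Mcl1(L-/-) livers and Atp5a1 was not. Atp5b, the beta subunit that carries the catalytic sites, rose 1.2-fold in Mcl1(L-/-) livers (log2 0.27, SE 0.09, adjusted p = 0.0378), and 8 of the 10 Mcl1(L-/-) arrays, each left out in turn, ended that call (adjusted p between 0.0534 and 0.108). Its estimate in WT livers was 0.15 (adjusted p = 0.405). Atp5a1, the alpha subunit, had 0.12 in Mcl1(L-/-) and 0.08 in WT livers (adjusted p = 0.396 and 0.714), although its 5 fasted Mcl1(L-/-) livers, at 10.69 to 10.86, lay above its 5 fed ones, at 10.60 to 10.68. Atp5c1, the gamma subunit of the central stalk, rose 1.25-fold (adjusted p = 0.0292) and lost the call without fed Mcl1(L-/-) replicate 1, 3 or 5 or fasted Mcl1(L-/-) replicate 4 or 5 (adjusted p between 0.0585 and 0.0844).

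The genes of the peripheral stalk and the membrane part held most of the other calls. Atp5o, which encodes the oligomycin sensitivity conferring protein at the top of that stalk, rose 1.4-fold in Mcl1(L-/-) livers, Atp5pb (subunit b) 1.29-fold and Atp5h (subunit d) 1.25-fold, with adjusted p = 0.00536, 0.0077 and 0.00674. The small membrane subunits Atp5md, Atp5mpl and Atp5l rose 1.31-fold, 1.26-fold and 1.23-fold (adjusted p = 0.00366, 0.0124 and 0.0267). The Atp5l call was lost without fed Mcl1(L-/-) replicate 5 or fasted Mcl1(L-/-) replicate 2, 4 or 5 (adjusted p between 0.0529 and 0.0616). Atp5j, Atp5j2, Atp5k and Atp5e were not called, with estimates of 0.14, 0.15, -0.01 and -0.07.

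**Figure D3:**
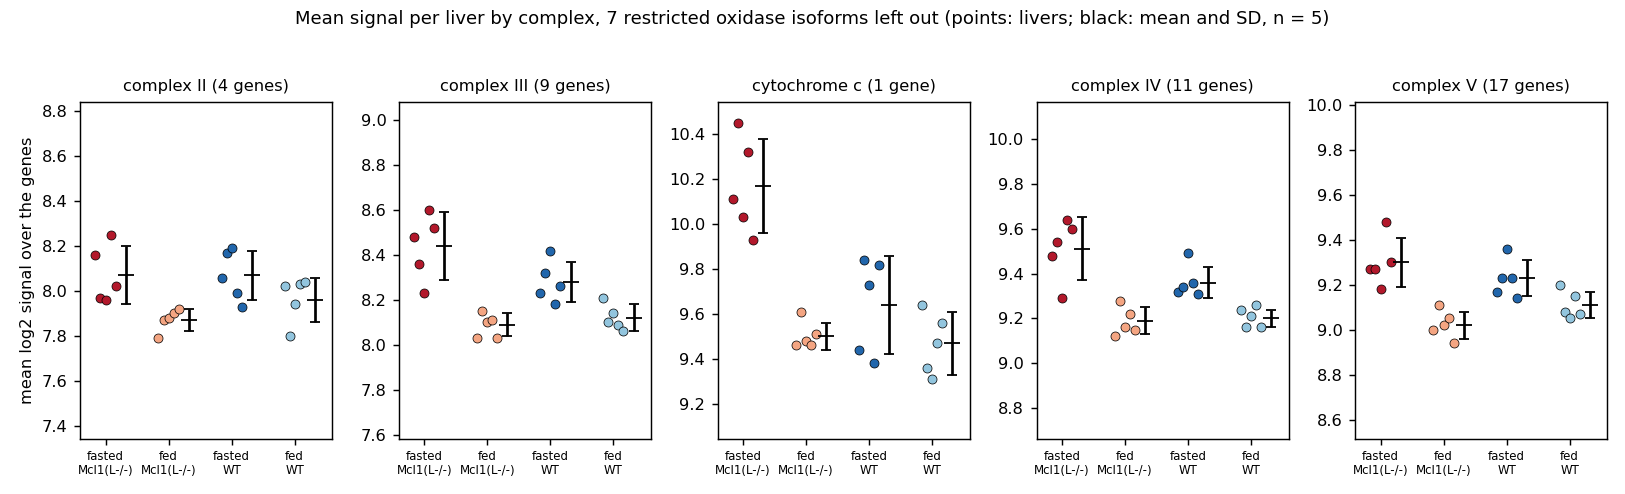
Mean log2 signal per liver (vertical axis) over the genes of each complex, without the 7 oxidase isoforms of other tissues, with points for livers and black bars for the group mean and SD, in the order fasted Mcl1(L-/-), fed Mcl1(L-/-), fasted WT and fed WT. The fasted Mcl1(L-/-) mean is higher than the fed Mcl1(L-/-) mean in every panel, and the gap is widest for cytochrome c (10.17 against 9.50).

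Averaged over the 42 members without those 7 isoforms, the mean signal was 9.07, 9.05, 8.91, 9.24 and 9.11 in fasted Mcl1(L-/-) livers, against 8.72, 8.84, 8.76, 8.79 and 8.72 in fed Mcl1(L-/-) livers. It was 8.91, 8.98, 9.09, 8.92 and 8.90 in fasted WT livers, against 8.89, 8.78, 8.80, 8.85 and 8.79 in fed WT livers. Fasted and fed livers did not overlap within either genotype, though in WT livers the nearest values were 8.90 and 8.89, and fasted Mcl1(L-/-) replicates 1, 2 and 3 lay inside the range of fasted WT livers. The genes moved together between livers of a group: fasted Mcl1(L-/-) replicate 3 was the lowest of its group in 27 of the 42 genes and replicate 4 the highest in 27. Fasted WT replicate 3 was the highest of its group in 25 and fed WT replicate 1 the highest of its group in 20. The cause of this shared variation was not tested, and the calls of the members are not independent of each other. The share of genes called in Mcl1(L-/-) livers was 2 of 4 for complex II, 6 of 9 for complex III, 6 of 18 for complex IV and 11 of 17 for complex V, and no test was made between complexes. For comparison, 8.2% of all probe sets were called higher, and 27.4% of those with a mean signal of at least 8.

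With food, no member was called between the genotypes. In fed Mcl1(L-/-) relative to fed WT livers 0 members were called, against 0.0225% of probe sets called higher and 0.0135% called lower (0% each among those with a mean signal of at least 8), and 2 members had an unadjusted p under 0.05, Sdhc and Atp5g3. Of the 49 estimates 34 were negative, with a median of -0.04. All 17 estimates of complex V were negative, between -0.20 and -0.00. In 3 members, Atp5g2, Atp5g3 and Uqcrb, all fed Mcl1(L-/-) livers lay below all fed WT livers, against 0.766% of all probe sets. The margins were narrow, with nearest values of 9.42 and 9.43 for Atp5g2 and of 10.53 and 10.54 for Uqcrb. For Atp5g3 the nearest values were equal to 2 decimals, at 9.44. The adjusted p of these 3 members lay between 0.76 and 0.919.

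In the fast, 1 member was called higher in Mcl1(L-/-) than in WT livers, Cycs, and 1 lower, Cox6a2, against 3.32% and 1.67% of all probe sets. Among the probe sets with a mean signal of at least 8 these shares were 5.45% and 7.11%, and of the 32 members that bright 1 was higher (3.12%). The members' median was 0.11, 35 of 49 estimates were positive, and all 9 estimates of complex III were positive, between 0.03 and 0.29. Cycs and Atp5md were higher in all 5 fasted Mcl1(L-/-) livers than in all 5 fasted WT livers, against 2.54% of all probe sets, and Atp5md had a log2 difference of 0.27 (adjusted p = 0.0945). The next estimate after Cycs was that of Cox7a2, at 0.40 (SE 0.12, adjusted p = 0.0565). Fasted Mcl1(L-/-) replicate 3 weighed on this comparison. Without it 6 members were called, 5 higher (Cycs, Cox5a, Cox6b1, Cox7a2 and Uqcr10) and 1 lower. Without fed Mcl1(L-/-) replicate 2, Cox7a2 was called (adjusted p = 0.046). Each of the 5 arrays named above for Cox6a2 left 1 call when it was left out.

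The test of the difference itself, the fasting effect in Mcl1(L-/-) minus that in WT livers, called 0 of 49 members with limma, against 0.0811% of probe sets called higher and 0.054% lower (0.165% each among those with a mean signal of at least 8). Of the members 6 had an unadjusted p under 0.05 (12.2%, against 11.2% of all probe sets): Atp5l, Atp5md, Cox5a, Cox6a2, Cox7b and Cycs. The lowest adjusted p was 0.158, for Cox6a2 (log2 -0.79). Of the 49 estimates 41 were positive (83.7%, against 48.2% of all probe sets), with a median of 0.13 and a median SE of 0.15. The larger number of calls in Mcl1(L-/-) livers is therefore not a shown difference in the response of any single member. The interaction of Uqcrc1 was 0.02 and that of Atp5d -0.03 (adjusted p = 0.986 and 0.967).

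Other genes of the same machinery, from lists of related genes, were set beside the members. Over all probe sets, 8.2% were called higher and 6.25% lower with fasting in Mcl1(L-/-) livers, and 3.1% and 3.68% in WT livers. Among probe sets with a mean signal of at least 8, 27.4% were called higher in Mcl1(L-/-) and 14.5% in WT livers. These lists were not matched to a background of like signal. Complex I subunits, which pass electrons from NADH to coenzyme Q, had 17 of 38 called higher and 0 lower in fasted Mcl1(L-/-) livers, and 3 of 38 higher in fasted WT livers. Ndufs7, an iron-sulfur subunit, rose by 0.64 in Mcl1(L-/-) and by 0.47 in WT livers (adjusted p = 0.000249 and 0.00959). Of 14 measured genes of the citric acid cycle and its filling, 9 rose and 0 fell with fasting in Mcl1(L-/-) livers, against 4 and 1 in WT livers. Pcx, which makes oxaloacetate for gluconeogenesis, rose by 0.79 in Mcl1(L-/-) and 0.76 in WT livers (adjusted p = 1.62e-06 and 6.89e-06). Fh1, the fumarase gene, rose by 0.98 in Mcl1(L-/-) livers (adjusted p = 1.49e-05) with an estimate of 0.37 in WT livers (adjusted p = 0.118). Without fasted WT replicate 1, Fh1 was also called higher with fasting in WT livers (0.48, adjusted p = 0.0285).

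Of 38 measured assembly factors of complexes II to V, 7 rose and 1 fell with fasting in Mcl1(L-/-) livers (18.4% higher, against 8.2% of all probe sets), and 1 rose in WT livers (2.63%, against 3.1%). Coa6, a copper-handling assembly factor of complex IV, was measured at 6.78, 7.17, 6.87, 7.27 and 6.99 in fasted Mcl1(L-/-) livers, against 6.0, 6.09, 5.56, 6.4 and 5.72 in fed Mcl1(L-/-) livers. Its groups lay apart, and it rose by 1.06 (SE 0.14, adjusted p = 5.65e-06) and in WT livers by 0.63 (adjusted p = 0.00435). Atpaf1, an assembly chaperone of the complex V head, rose by 0.72 in Mcl1(L-/-) livers (adjusted p = 0.000528), with 0.18 in WT livers (adjusted p = 0.584). Sco1, a copper chaperone of complex IV, fell by 0.53 in Mcl1(L-/-) livers (adjusted p = 0.00647).

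A pair of carriers that supply complex V rose in both genotypes. Slc25a3, the mitochondrial phosphate carrier, rose by 0.56 in Mcl1(L-/-) and 0.39 in WT livers (adjusted p = 5.21e-05 and 0.00495), and Slc25a5, an ADP/ATP carrier, rose by 0.37 and 0.34 (adjusted p = 0.00323 and 0.0146). Atpif1, which encodes the inhibitor of ATP hydrolysis by complex V, had signals of 5.38, 5.88, 5.43, 6.05 and 5.53 in fasted Mcl1(L-/-) livers, against 6.31, 6.41, 6.14, 6.19 and 6.15 in fed Mcl1(L-/-) livers. In WT livers it had 5.78, 5.52, 5.85, 5.30 and 5.52 with fasting, against 6.65, 6.31, 6.19, 6.32 and 6.31 with food. Its fasted livers lay below its fed livers in both genotypes, and it fell by 0.59 in Mcl1(L-/-) (SE 0.13, adjusted p = 0.00312) and by 0.76 in WT livers (adjusted p = 0.000531). In all, 2 of the 8 measured genes of this list rose (25%) and 1 fell in each genotype. Of all probe sets, 8.2% rose in Mcl1(L-/-) and 3.1% in WT livers. Of those with a mean signal of at least 8, 27.4% and 14.5% rose.

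Among 16 measured regulators of nuclear respiratory genes, 5 rose and 1 fell with fasting in Mcl1(L-/-) livers, against 2 and 0 in WT livers. Ppargc1a, which encodes the coactivator PGC-1alpha, was measured at 7.89, 7.10, 7.89, 8.05 and 7.5 in fasted Mcl1(L-/-) livers, against 5.73, 7.01, 5.95, 5.67 and 5.86 in fed Mcl1(L-/-) livers. In WT livers it was measured at 7.45, 7.68, 8.0, 8.2 and 7.63 with fasting, against 6.18, 6.82, 5.63, 5.88 and 5.44 with food. Its fasted and fed livers lay apart in both genotypes, and it rose by 1.64 in Mcl1(L-/-) and by 1.80 in WT livers (SE 0.25 each, adjusted p = 5.01e-05 and 4e-05), with an interaction of -0.16 (adjusted p = 0.922).

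Gabpb1, a subunit of GABP, rose by 0.93 in Mcl1(L-/-) livers (SE 0.23, adjusted p = 0.00567), with 0.11 in WT livers (adjusted p = 0.88) and an interaction of 0.81 (adjusted p = 0.313). Nrf1 rose by 0.65 in Mcl1(L-/-) livers (SE 0.19, adjusted p = 0.0184), was 0.71 higher in fasted Mcl1(L-/-) than in fasted WT livers (adjusted p = 0.0287), and had 0.10 with fasting in WT livers. The fasting call of Nrf1 was lost without fed Mcl1(L-/-) replicate 1 or fasted Mcl1(L-/-) replicate 2 (adjusted p = 0.0714 to 0.073). Its genotype call was lost without fasted WT replicate 2, 3 or 4 or fasted Mcl1(L-/-) replicate 1, 2 or 5 (adjusted p up to 0.096). Ppara, a receptor that drives fatty acid oxidation genes, fell by 0.72 in Mcl1(L-/-) livers (SE 0.22, adjusted p = 0.0283). That call was lost without fed Mcl1(L-/-) replicate 3, 4 or 5 or fasted Mcl1(L-/-) replicate 1, 2 or 5 (adjusted p up to 0.103). Tfb1m was called higher with fasting in WT livers and was not called in Mcl1(L-/-) livers. Its WT call was lost without any 1 of 5 WT arrays (adjusted p between 0.0519 and 0.0719). In Mcl1(L-/-) livers Tfb1m was called without fed Mcl1(L-/-) replicate 4 (0.84, adjusted p = 0.00303) or fasted Mcl1(L-/-) replicate 2 (0.71, adjusted p = 0.0428).

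**Figure D4:**
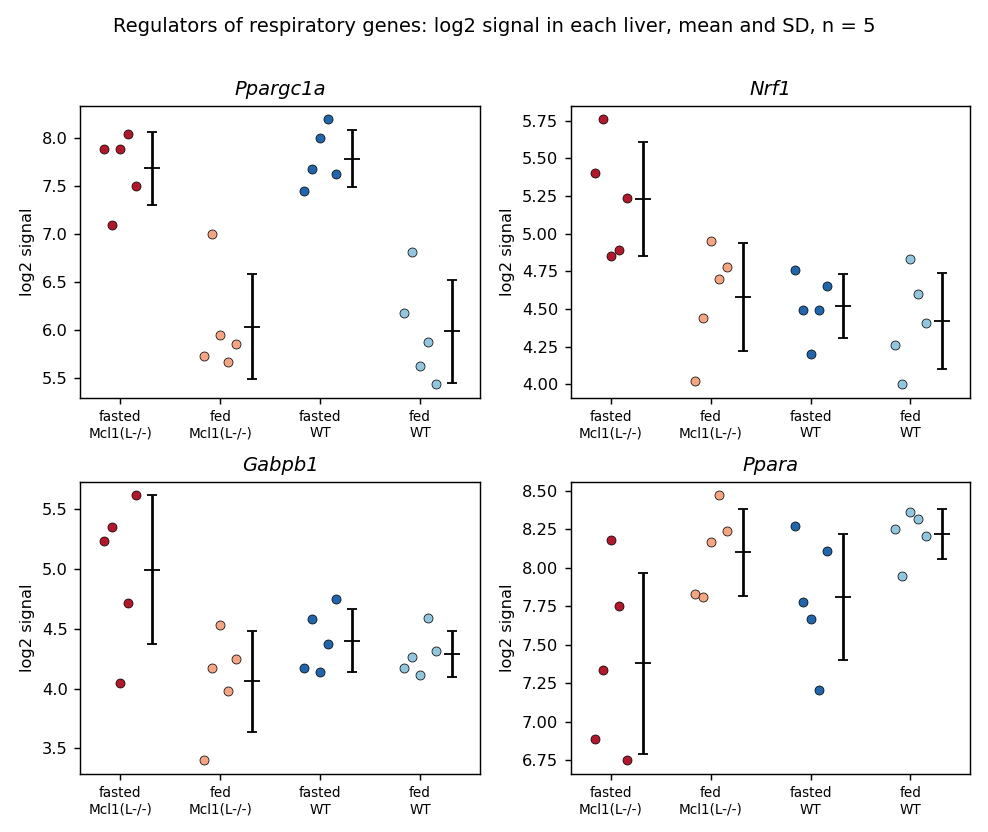
Log2 signal of 4 regulators in each liver (vertical axis, its range differs between panels), with points for livers and black bars for the group mean and SD, in the order fasted Mcl1(L-/-), fed Mcl1(L-/-), fasted WT and fed WT. Ppargc1a is higher in the fasted livers of both genotypes, while for Gabpb1 fasted Mcl1(L-/-) replicate 3, at 4.05, lies among the fed livers.

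For coenzyme Q synthesis, of 12 measured genes 1 rose and 2 fell with fasting in Mcl1(L-/-) livers (8.33% higher, against 8.2% of all probe sets), and 1 rose in WT livers (8.33%, against 3.1%). Coq6, a hydroxylase of the pathway, rose by 0.79 in Mcl1(L-/-) livers (adjusted p = 0.000863), and Coq2, which attaches the isoprenoid tail, fell by 0.52 (adjusted p = 0.00852). Coq10b, a coenzyme Q binding protein, fell by 0.92 (adjusted p = 0.0167), and lost the call without fasted Mcl1(L-/-) replicate 2 (adjusted p = 0.0564). In WT livers Coq10b had -0.75 (adjusted p = 0.0913), with all fasted livers below all fed ones, and it was called there without fasted Mcl1(L-/-) replicate 2 or 4 (adjusted p = 0.0211 and 0.046). Coq9, a lipid-binding protein of the pathway, rose by 0.41 in WT livers (adjusted p = 0.0274), a call that leaving out any of 7 WT arrays ended (adjusted p up to 0.0937).

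Between the genotypes, these lists gave 0 calls with food. In the fast, Mcl1(L-/-) livers were higher than WT livers for 4 of 14 citric acid cycle genes, 4 of 38 assembly factors, 1 of 38 complex I subunits, 1 of 16 regulators, 1 of 12 coenzyme Q genes and 1 of 8 carriers and inhibitor, and lower for 0 of any list. Over all probe sets 3.32% were higher and 1.67% lower, so that the shares of complex I (2.63%) lay below the first of these, and those of the cycle (28.6%) and the assembly factors (10.5%) above it. Several of these calls were lost when 1 array was left out. Atpaf1 lost its call without any of 10 arrays (adjusted p up to 0.119) and Fh1 without any of 5 (up to 0.0671). Ndufs4, the complex I gene, lost it without any of 8 (up to 0.08), and Coq6 without any of 3 (up to 0.06). Cs, the citrate synthase gene, was measured at 7.51, 7.45, 7.13, 7.64 and 7.22 in fasted Mcl1(L-/-) livers, against 6.9, 6.65, 7.0, 6.27 and 6.9 in fasted WT livers. With food it was measured at 7.17, 7.18, 7.18, 7.34 and 7.13 in Mcl1(L-/-) livers and 7.19, 7.12, 7.39, 7.07 and 7.16 in WT livers. Cs was the citric acid cycle gene that fell with fasting in WT livers, by 0.44 (adjusted p = 0.0338), a call ended by leaving out any of 6 WT arrays (adjusted p up to 0.109). The fasted groups did not overlap, the difference was 0.65 (SE 0.13, adjusted p = 0.00476), and the interaction was 0.63 (SE 0.18, adjusted p = 0.139). Idh3a, a subunit of isocitrate dehydrogenase, was higher by 0.60 (adjusted p = 0.0172), and lost the call without fasted Mcl1(L-/-) replicate 1 (adjusted p = 0.0562). Slc25a4, the ADP/ATP carrier of heart and muscle, was higher by 0.77 (SE 0.18, adjusted p = 0.0173), and lost the call without fasted Mcl1(L-/-) replicate 2 (adjusted p = 0.0611). Cox19, a copper-related assembly factor of complex IV, was higher by 0.61 (adjusted p = 0.0283), a call ended by leaving out fasted WT replicate 2 or 4 or fasted Mcl1(L-/-) replicate 2, 4 or 5 (adjusted p up to 0.0767). The difference between fasting effects was called for 0 genes of these lists. Without fasted Mcl1(L-/-) replicate 3 it was called for Fh1 (0.72, adjusted p = 0.0411) and Gabpb1 (1.05, adjusted p = 0.0478), and Gabpb1 was then also called higher in fasted Mcl1(L-/-) than in fasted WT livers (adjusted p = 0.00983).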

How the data were processed

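Liver RNA was labelled for Affymetrix arrays with the GeneChip WT PLUS kit, per the labels' protocols. The authors deposited log2 signals in 1 table, processed by RMA and Partek 7.0, per the submitters' processing notes, which name no settings here. Values run from 1.34 to 12.56, with no log base stated. Genes were named from the platform annotation, and promoters came from RefSeq (GRCm38.p6).

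The signals were fitted with limma 3.58.1 in R 4.3.3, with 1 mean per group over all 20 arrays, eBayes moderation and Benjamini-Hochberg adjustment over 22206 probe sets. Contrasts were fasted minus fed in each genotype, Mcl1(L-/-) minus WT in each feeding state, and their interaction. The 2 fasting contrasts and the 2 genotype contrasts share groups with each other. The steps were tested on simulated data. Members and gene lists were chosen with earlier results of these data known. Named genes are the member with the largest called rise or fall per complex and contrast, a list of central subunits and oxidase isoforms, and up to 2 called genes per direction of each other list. Members named beyond these, and the background of bright probe sets, were chosen after their values were seen. Alternatives were other scalings, moderation, weights for arrays, leaving out dim probe sets, a replicate block, fits on 2 groups and leaving out each array. The number of arrays limits the precision. Python 3.11.15 with matplotlib 3.10.9 drew the figures.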

Additional observations from a re-analysis of the deposited data

Results flagged for a closer look

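Single livers stood apart from the other 4 of their group, by a gap of over 0.71 of the group's range, in 4 of 116 tests on 29 genes and 4 groups. Chance marks about 1 in 20 such groups. Fasted WT replicate 3 was high for the c subunit gene Atp5g3, at 10.05 where the others of its group lay at 9.70 to 9.80, and for Cox4i1, at 9.21 against 8.87 to 8.93. Fasted WT replicate 5 was low for the complex II anchor gene Sdhd, at 8.45 against 8.63 to 8.70. Fed WT replicate 5 was high for Cox6b2, a testis isoform of cytochrome oxidase, at 3.66 against 2.91 to 3.10. All 4 values are in WT livers.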

How the results depend on the processing

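Members higher in fasted than fed Mcl1(L-/-) livers numbered 26 in the reported fit, 22 after a further quantile normalisation, 29 with arrays centred on their medians, 31 with trend and robust moderation, 24 with array weights, 29 without dim probe sets (44 members tested), 23 with a replicate block and 19 in a fit of the 2 groups alone, with 0 lower in any of these. Of the 26 calls, 18 held in all 27 alternatives. Fasting in WT livers gave 6 calls and the fasted comparison of genotypes 4 with trend and robust moderation, against 3 and 2 as reported, and the fasted comparison of genotypes gave 0 with only its 2 groups, where Cycs had an adjusted p of 0.0652. Leaving out 1 array at a time gave 18 to 28 calls for fasting in Mcl1(L-/-), 1 to 4 for fasting in WT, 1 to 6 for the fasted genotypes, and 0 members for the fed genotypes and for the interaction. Atp5g1, Uqcrb, Cox6c and Cox7c became called for fasting in Mcl1(L-/-) without 1 array each. The members' median difference then ran from 0.28 to 0.34 for fasting in Mcl1(L-/-), 0.11 to 0.14 for fasting in WT, 0.07 to 0.15 for the fasted genotypes, -0.06 to -0.02 for the fed genotypes and 0.11 to 0.17 for the interaction. Why the settings differ was not tested. The labels number replicates 1 to 5 in each group, but same-numbered livers did not deviate together (correlations -0.19 to 0.166, 1 of 30 pairs over 0.1, best match of the same number in 9 of 60 cases), and with a replicate block fasting in WT gave 2 calls, the fasted genotypes 2, and the fed genotypes and the interaction 0. No called difference of a gene turned its direction in the alternatives run, while some estimates near 0 that were not called changed sign.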
